A study of Mus musculus with 20 samples.

Results

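The interleukin-6 family was followed in Sca-1 positive mouse kidney cells through 10 genes taken by name from the 47729 genes counted in every library. They are 4 ligands (Il6, Il11, Lif and Clcf1), 3 receptors that bind a ligand (Il6ra, Il11ra1 and Cntfr) and 3 receptors that carry the signal into the cell (Il6st, Lifr and Osmr). All 10 were in the files and all 10 passed the filter on low counts. Sca-1, a surface protein encoded by Ly6a, was the marker for magnetic sorting of digested kidney. Roxadustat is a drug that inhibits the prolyl hydroxylases marking hypoxia-inducible factor (HIF) for degradation.

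The 20 libraries form 6 groups. Day 0 libraries are from freshly sorted cells of control mice (n = 2) and of mice given roxadustat intraperitoneally at 33 mg/kg for 7 days (n = 2). The others are from cells cultured for 7 or 21 days in medium for mesenchymal stem cells with FCS, at 20% O2, 5% CO2 and 37 °C, as control (n = 4 at each time) or with roxadustat in the medium (n = 4 at each time). Strain, age and sex of the mice are not given in the sources used here, nor is the origin, from injected or untreated mice, of the cells cultured with roxadustat. No label tells if replicates stem from different animals or culture dishes. All p-values measure only the spread between these libraries, which may be technical. Unless stated otherwise, the spread of each gene was estimated over all 20 libraries together. Standard errors and p-values at day 0 therefore also draw on the spread of the cultured libraries, and not on the fresh cells alone.

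Cytokines of this family act through gp130, the shared signalling receptor encoded by Il6st. Interleukin-6 and interleukin-11 first bind their own receptors, Il6ra and Il11ra1, and then bring gp130 chains together. Leukaemia inhibitory factor (Lif) joins gp130 with Lifr, oncostatin M joins gp130 with Osmr, and cardiotrophin-like cytokine factor 1 (Clcf1), uses Cntfr, gp130 and Lifr. The receptors activate Janus kinases and STAT3, and STAT3 induces the inhibitor Socs3, which dampens the signal. In the kidney, interleukin-6 and interleukin-11 are known from inflammation and fibrosis, and Lif from tubule development and injury.

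The deposited counts summed to 8.5 to 19.9 M per library (M, mega counts). Levels are given as CPM, counts per mega count of library size after TMM scaling, and a change is called where the adjusted p of edgeR's quasi-likelihood test over 18731 genes is below 0.05. The label of the cells is mesenchymal stem cell-like, and all 6 genes listed for it had counts in every group. Their summed level was 1051 to 1298 CPM at day 0 and 3022 to 4554 CPM in culture, where the integrin gene Itgb1 made up most of it (group means of 2475 to 3596 CPM). The others differed between the arms at day 21, with Nt5e at 13.8 CPM in control and 412 CPM in roxadustat cells, Thy1 at 250 and 9.03 CPM, and Ly6a, the gene of the sort marker, at 178 and 506 CPM (means of 4 libraries). Fresh cells also held many transcripts of tubule epithelium, with 10 markers summing to 29049 to 36058 CPM, against 203 to 214 CPM in control and 507 to 526 CPM in roxadustat libraries at day 7. In culture at day 21 the tubule markers summed to 18.5 to 23.6 CPM in control and 473 to 488 CPM in roxadustat libraries. The 4 control libraries of day 21 lay in 2 close pairs (replicates 1 and 2, and 3 and 4), and with each pair summed to 1 library all 10 members were still called at day 21, in the same directions. In bulk RNA, fewer cells of a type and less RNA per cell cannot be told apart.

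At day 21 all 10 members differed between the arms. The ligands Il11, Lif and Clcf1 were higher with roxadustat, and the ligand Il6 and all 6 receptors were lower. These 3 higher and 7 lower members compare with 62.9% of all tested genes called at that time, 30.0% higher and 32.9% lower. The libraries of the 2 arms did not overlap in any of the 10 genes. The share of all tested genes without such overlap was not counted, so this is a description of the 10 genes only. The median log2 fold change was 1.56 for the ligands and -2.07 for the receptors, and 0.00 over all genes.

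**Figure D1:**
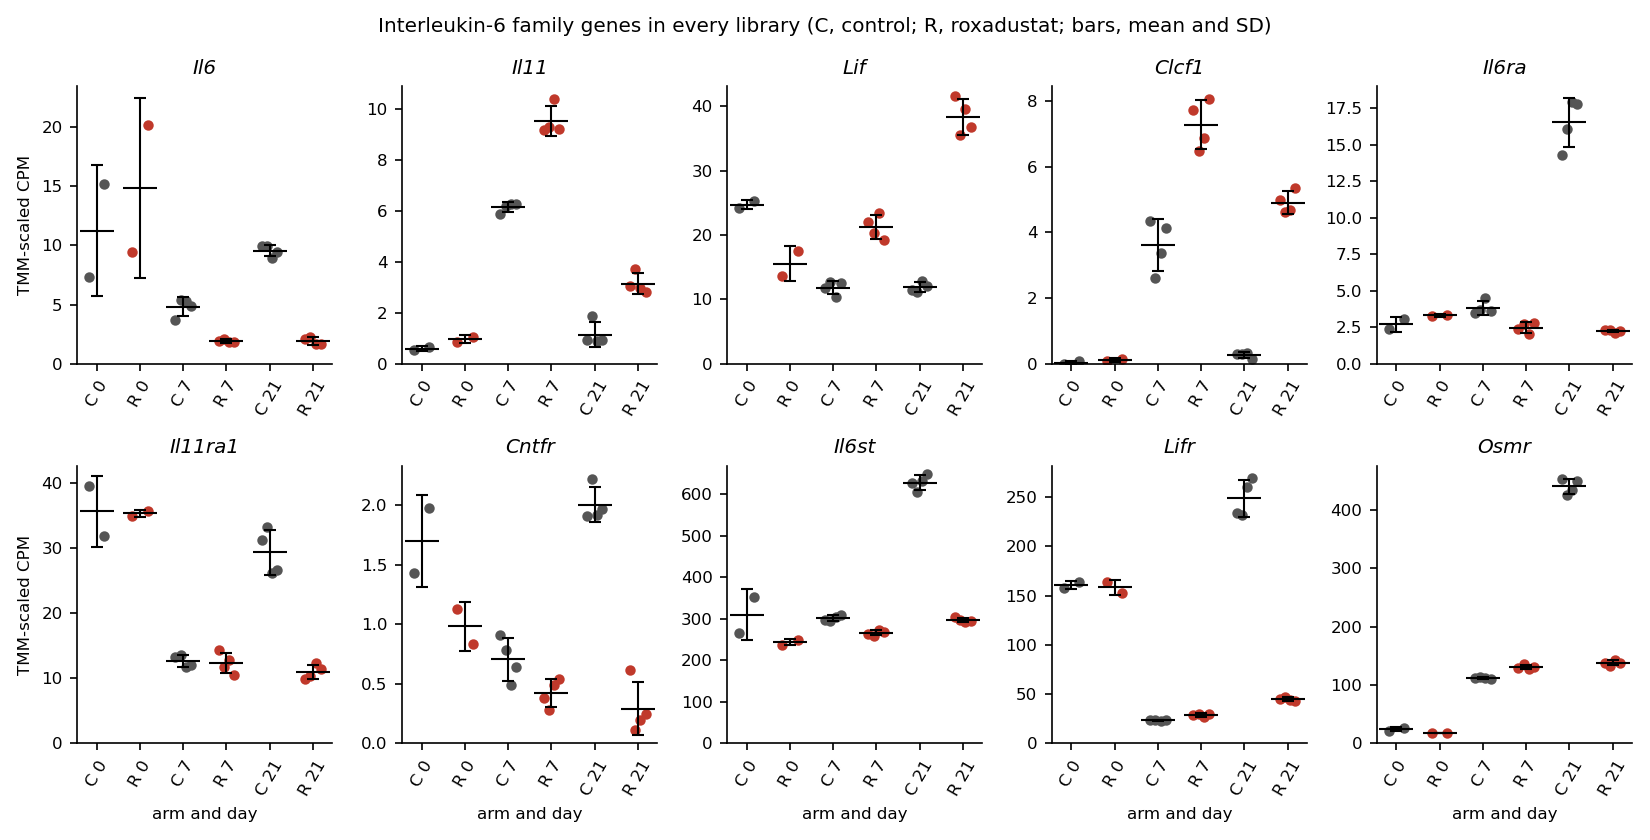
TMM-scaled CPM (linear axes from 0, each gene on its own scale) of the 10 genes in each of the 20 libraries, by arm (C, control; R, roxadustat) and day. Points are libraries and bars the mean and SD of a group; at day 21 no library of either arm lies within the range of the other.

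Il6, the inflammatory ligand that names the family (ENSMUSG00000025746, mm10 chromosome 5, 30013114 to 30019981, plus strand), rose in control cells from day 7 to day 21, while with roxadustat the change over that interval was 0.01 on the log2 scale (adjusted p = 0.978). Control libraries held 3.69, 5.41, 5.30 and 4.89 CPM at day 7 and roxadustat libraries 1.92, 2.12, 1.80 and 1.81 CPM. At day 21 they held 9.95, 9.96, 8.94 and 9.41 CPM against 2.11, 2.28, 1.69 and 1.62 CPM. Every roxadustat library lay below every control library at both times. The log2 fold change was -1.34 ± 0.26 (SE, adjusted p = 0.000193) at day 7 and -2.31 ± 0.25 (adjusted p = 7.97e-08) at day 21. At day 0 the 2 control libraries, at 7.34 and 15.2 CPM, and the 2 roxadustat libraries, at 9.47 and 20.2 CPM, overlapped and differed widely within each arm. The difference there was 0.39 ± 0.28 (adjusted p = 0.506), and it ran from -0.25 (without roxadustat replicate 2, adjusted p = 0.751) to 1.00 (without control replicate 2, adjusted p = 0.0268) when 1 library was left out.

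Il11, a cytokine of stromal cells tied to fibrosis (ENSMUSG00000004371, chromosome 7, 4772373 to 4782859, minus strand), was low in fresh cells, highest at day 7 and lower again at day 21 in both arms. Day 0 levels were 0.519 and 0.658 CPM in control and 0.861 and 1.06 CPM in roxadustat libraries, a difference of 0.70 ± 0.40 (adjusted p = 0.399) from 18 and 27 counts. At day 7 control libraries held 5.89, 6.19, 6.28 and 6.28 CPM and roxadustat libraries 9.17, 9.30, 10.4 and 9.23 CPM. At day 21 the values were 0.92, 1.86, 0.88 and 0.91 CPM in control and 3.06, 3.72, 2.98 and 2.80 CPM with roxadustat. Roxadustat libraries were above all control libraries at both culture times. On the log2 scale roxadustat differed from control by 0.63 ± 0.13 (adjusted p = 0.000168) at day 7 and 1.43 ± 0.19 (adjusted p = 3.03e-07) at day 21.

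Lif, which signals through Lifr and gp130 (ENSMUSG00000034394, chromosome 11, 4257557 to 4272514, plus strand), was lower with roxadustat in fresh cells and higher with roxadustat in culture. Control libraries held 24.2 and 25.2 CPM at day 0 and roxadustat libraries 13.6 and 17.5 CPM. At day 7 they held 11.8, 12.7, 10.4 and 12.5 CPM against 22.0, 20.3, 23.4 and 19.2 CPM. At day 21 they held 11.4, 11.2, 12.9 and 12.0 CPM against 41.6, 35.5, 39.6 and 36.7 CPM. The arms did not overlap at any time, with roxadustat the lower arm at day 0 and the higher arm in culture. The fitted log2 fold change was -0.67 ± 0.12 (adjusted p = 0.000702) at day 0, 0.84 ± 0.09 (adjusted p = 4.6e-09) at day 7 and 1.69 ± 0.09 (adjusted p = 6.93e-16) at day 21. The day 0 call was lost in a fit of the 4 day 0 libraries alone, with the value at -0.65 (adjusted p = 0.179).

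Clcf1, a ligand of Cntfr (ENSMUSG00000040663, chromosome 19, 4214238 to 4223490, plus strand), was nearly absent from fresh cells, with 1 count over both control libraries and 3 over both roxadustat libraries. Both lie at or under a floor of 3 counts per group, so no fold is given between them. At day 7 control libraries held 4.34, 2.62, 3.35 and 4.13 CPM and roxadustat libraries 7.73, 6.47, 6.87 and 8.05 CPM. At day 21 control libraries held 0.307, 0.300, 0.319 and 0.140 CPM, from 16 counts over the group, and roxadustat libraries 4.97, 4.61, 4.67 and 5.36 CPM. Every roxadustat library was above every control library at both times, and in control cells the day 21 libraries were all below those of day 7. The log2 fold change was 1.02 ± 0.15 (adjusted p = 1.37e-06) at day 7 and 4.16 ± 0.25 (adjusted p = 2.71e-14) at day 21, the largest among the 10 genes. Of the merged exons of Clcf1, 8.17% are shared with a readthrough gene that the files do not list, so some reads may not be its own.

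The sequences before the starts of 3 of the ligand genes are shown because these genes hold an AP-1 motif there and none of the receptor windows does. They come from RefSeq (GRCm38.p6), run 5′ to 3′ on the gene's strand and end at the base before the start, except that the Lif window stops at base 4257556, before its first exon in GENCODE. Capitals mark matches to AP-1 (TGANTCA), NF-kB (GGG and TTTCC with any 2 bases between) or a HIF core (ACGTG or GCGTG), on either strand, and none of the matches shown overlap.
Il6, chr5:30012864-30013113, plus strand: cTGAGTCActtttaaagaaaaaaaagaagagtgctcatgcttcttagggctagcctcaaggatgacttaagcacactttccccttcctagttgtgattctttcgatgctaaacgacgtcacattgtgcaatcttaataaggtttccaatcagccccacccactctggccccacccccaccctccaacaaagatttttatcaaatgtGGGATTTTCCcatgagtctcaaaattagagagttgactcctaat
Il11, second listed start, chr7:4778142-4778391, minus strand: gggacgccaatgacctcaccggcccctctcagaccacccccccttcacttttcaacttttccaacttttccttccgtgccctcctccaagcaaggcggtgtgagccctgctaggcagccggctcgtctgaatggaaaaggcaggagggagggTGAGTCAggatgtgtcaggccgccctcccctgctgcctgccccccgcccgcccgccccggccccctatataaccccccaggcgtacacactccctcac
Lif, chr11:4257318-4257556, plus strand: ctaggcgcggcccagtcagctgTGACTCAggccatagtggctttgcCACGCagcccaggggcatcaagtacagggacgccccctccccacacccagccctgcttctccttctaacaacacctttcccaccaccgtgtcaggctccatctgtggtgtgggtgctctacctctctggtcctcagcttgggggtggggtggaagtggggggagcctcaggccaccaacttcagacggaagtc
In Il6 the AP-1 match lies 249 to 243 bases and the NF-kB match 44 to 35 bases before the start. In Il11 the AP-1 match lies 98 to 92 bases before the start, and the other listed start has no match. In Lif the AP-1 match lies 228 to 222 bases and a HIF core, read as CACGC on this strand, 204 to 200 bases before the RefSeq start. That start lies downstream of the last base shown for Lif. RefSeq windows were matched for 9 of the 10 genes, 17 windows in all, and not for Clcf1. Of 32851 windows of 250 bases over all genes, 6.75% hold TGANTCA, 1.41% this NF-kB motif and 38.6% a HIF core. HIF cores were also found in windows of Il6ra, Cntfr and Lifr. The STAT motif TTCNNNGAA, in 7.02% of all windows, was in no window of a member. These letters are a description of the windows and not binding sites.

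All 3 receptors that bind a ligand were lower with roxadustat at day 21. Il6ra, the interleukin-6 receptor (ENSMUSG00000027947, chromosome 3, 89864059 to 89913196, minus strand), was at 3.49, 3.68, 4.49 and 3.60 CPM in control and 2.35, 2.69, 2.02 and 2.80 CPM in roxadustat libraries at day 7. At day 21 control libraries held 14.3, 16.1, 17.9 and 17.8 CPM and roxadustat libraries 2.31, 2.28, 2.09 and 2.26 CPM. Roxadustat libraries were below all control libraries at both times, and at day 21 control cells were above all other groups. On the log2 scale roxadustat differed from control by -0.62 ± 0.14 (adjusted p = 0.000444) at day 7 and -2.87 ± 0.13 (adjusted p = 3.16e-17) at day 21. Day 0 levels of 2.34 and 3.03 CPM in control and 3.25 and 3.35 CPM with roxadustat gave 0.30 ± 0.21 (adjusted p = 0.509). An antisense gene shares 2.8% of the exons of Il6ra, and the libraries carry no strand, so its reads cannot be told apart there.

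Il11ra1, the receptor of interleukin-11 (ENSMUSG00000073889, chromosome 4, 41699989 to 41769474, plus strand), did not pass the test at day 0 or day 7. Control and roxadustat libraries overlapped at both times, at 31.9 to 39.5 against 35.0 to 35.7 CPM at day 0 and 11.8 to 13.5 against 10.6 to 14.3 CPM at day 7. The log2 differences were -0.01 ± 0.13 (adjusted p = 0.988) and -0.03 ± 0.10 (adjusted p = 0.824). At day 21 control libraries held 31.2, 33.3, 26.3 and 26.7 CPM and roxadustat libraries 9.93, 10.4, 12.3 and 11.5 CPM. All 4 roxadustat libraries were lower, by a log2 fold change of -1.42 ± 0.10 (adjusted p = 7.23e-13). The level is uncertain, since 46.3% of the 50-base words in its transcripts also occur in the near-copies Gm13305 and Il11ra2. These copies had 2 and 0 counts over the 20 libraries, and how the authors' counting treated shared reads is not given in the sources used here.

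Cntfr, the receptor that Clcf1 binds (ENSMUSG00000028444, chromosome 4, 41657498 to 41697089, minus strand), was the lowest receptor per exon length in both arms at day 7 and day 21. Control libraries held 1.43 and 1.97 CPM at day 0 and roxadustat libraries 1.13 and 0.837 CPM. At day 21 they held 1.90, 2.22, 1.92 and 1.97 CPM against 0.612, 0.111, 0.199 and 0.246 CPM. Every roxadustat library was lower than every control library at day 0 and at day 21. At day 7 the arms overlapped, at 0.487 to 0.906 CPM in control and 0.283 to 0.543 CPM in roxadustat libraries. The day 21 values of the roxadustat arm rest on 18 counts. The fitted log2 fold change was -0.78 ± 0.38 (adjusted p = 0.27) at day 0, -0.71 ± 0.33 (adjusted p = 0.083) at day 7 and -2.78 ± 0.33 (adjusted p = 2.39e-08) at day 21. Without roxadustat replicate 1 the day 21 value was -3.38.

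The 3 receptors that signal were also lower with roxadustat at day 21. Il6st, encoding gp130 (ENSMUSG00000021756, chromosome 13, 112464070 to 112510086, plus strand), was at 627, 605, 633 and 648 CPM in control and 305, 297, 292 and 296 CPM in roxadustat libraries. The log2 fold change was -1.08 ± 0.06 (adjusted p = 2.31e-15), and no roxadustat library reached the control range. At day 7 the arms were closer, at 298, 295, 305 and 309 CPM against 263, 259, 274 and 269 CPM. That difference of -0.18 ± 0.06 (adjusted p = 0.0125) was not called with library size alone as the scaling, at -0.11 (adjusted p = 0.113).

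Lifr, the receptor for Lif (ENSMUSG00000054263, chromosome 15, 7090614 to 7197489, plus strand), fell and rose again over time in control cells. Control libraries held 158 and 164 CPM at day 0, 23.5, 23.8, 23.0 and 24.3 CPM at day 7 and 234, 232, 260 and 269 CPM at day 21. Roxadustat libraries held 164 and 153 CPM, then 28.6, 29.9, 26.8 and 30.3 CPM, then 45.2, 47.3, 44.0 and 43.1 CPM. The arms overlapped at day 0, roxadustat libraries were slightly above control at day 7, and at day 21 they were far below. On the log2 scale roxadustat differed from control by -0.02 ± 0.08 (adjusted p = 0.92) at day 0, 0.29 ± 0.06 (adjusted p = 0.000281) at day 7 and -2.47 ± 0.06 (adjusted p = 1.04e-23) at day 21.

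Osmr, which joins gp130 in the receptor of oncostatin M (ENSMUSG00000022146, chromosome 15, 6813577 to 6874969, minus strand), increased with culture in control cells at each step. Control libraries held 21.8 and 26.6 CPM at day 0, 112, 114, 113 and 110 CPM at day 7 and 452, 424, 433 and 450 CPM at day 21. Roxadustat libraries held 17.4 and 18.3 CPM, then 129, 136, 127 and 131 CPM, then 138, 133, 144 and 138 CPM. The roxadustat arm was lower at day 0, higher at day 7 and lower at day 21, without overlap at any time. The fitted log2 fold change was -0.44 ± 0.09 (adjusted p = 0.00166) at day 0, 0.22 ± 0.05 (adjusted p = 0.000577) at day 7 and -1.67 ± 0.05 (adjusted p = 2.41e-21) at day 21.

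Marker genes of other cell types differed between the arms alongside these receptors. The marker calls of day 21 below compare with 32.9% of all genes called lower and 30.0% called higher. For day 7 the shares to set beside them are 23.6% lower and 24.1% higher. At day 21 the 10 fibroblast markers summed to 51228 to 54148 CPM in control and 2646 to 3850 CPM in roxadustat libraries, and all 10 were lower with roxadustat. The 8 markers of pericytes and smooth muscle summed to 4452 to 5016 against 1524 to 1680 CPM, with all 8 lower. The 10 markers of macrophages and dendritic cells summed to 283 to 333 against 16.2 to 18.6 CPM, with 9 of 10 lower. The 10 endothelial markers summed to 273 to 297 against 75.8 to 79.2 CPM, most of it Flt1 (means of 257 and 72.5 CPM); 4 of the 10 were lower and 6 not called, and Pecam1 and Cdh5 had means of 0.0636 to 0.259 CPM in both arms. No marker of these lists was without counts in either arm. At day 7 the fibroblast sums were 11392 to 12028 against 7440 to 8477 CPM, with 5 of 10 markers lower and 5 not called. Col3a1 (means of 5418 and 3988 CPM) and Col1a2 (4008 and 2111 CPM) made up most of these sums. Dcn, at 15.9 and 16.5 CPM, and Mfap5, at 129 and 130 CPM, were level. The sums of pericytes and smooth muscle were 8888 to 9233 against 3108 to 3178 CPM, with 7 of 8 lower. Those of macrophages and dendritic cells were 337 to 341 against 16.6 to 18.4 CPM, with 9 of 10 lower. Endothelial sums at day 7 were 76.6 to 82.8 CPM in control and at most 30.3 CPM in roxadustat libraries, with 3 markers higher and 5 lower, and of the tubule markers 5 of 10 were higher with roxadustat at each of day 7 and day 21. The part of these cell types in the differences of the family was not tested.

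**Figure D2:**
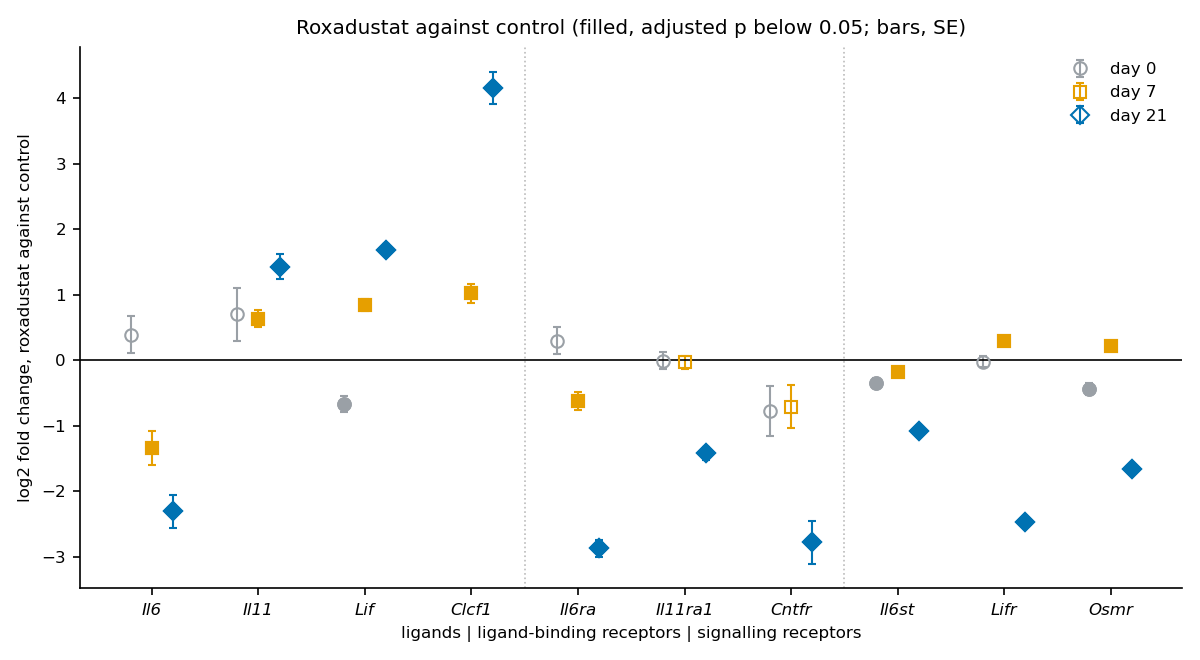
Log2 fold change of roxadustat against control (y axis) with its SE (bars) for the 10 genes at day 0 (circles), day 7 (squares) and day 21 (diamonds), filled where the adjusted p is below 0.05. Clcf1 is left out at day 0 for lack of counts; the day 21 values of all 6 receptors lie below 0, from -1.08 to -2.87.

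In fresh cells Lif, Il6st and Osmr passed the test between the arms, all 3 lower in roxadustat libraries, against 6.83% of all genes called, 2.73% higher and 4.11% lower. Il6st was at 267 and 353 CPM in control and 238 and 249 CPM in roxadustat libraries, a log2 fold change of -0.35 ± 0.08 (adjusted p = 0.00883). This call was lost without control replicate 2 (-0.14, adjusted p = 0.355), and leaving out roxadustat replicate 1 also ended it (-0.33, adjusted p = 0.0919). That of Osmr was lost without control replicate 2 (-0.30, adjusted p = 0.0636). In a fit of the 4 day 0 libraries alone no member was called, and 23 genes were called in place of 1280. Fibroblast markers summed to 265 to 456 CPM in control and 1574 to 2665 CPM in roxadustat libraries at day 0, and macrophage and dendritic cell markers to 106 to 114 against 201 to 239 CPM. Endothelial markers, 8 of 10 of them lower with roxadustat, summed to 252 to 288 against 157 to 160 CPM, and tubule markers, 3 of 10 lower, to 31901 to 36058 against 29049 to 30259 CPM. The part of these cell types was not tested.

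By day 7 of culture, 5 members were higher and 3 lower with roxadustat, against 47.7% of all genes called, 24.1% higher and 23.6% lower. Il11, Lif, Clcf1, Lifr and Osmr were the higher ones and Il6, Il6ra and Il6st the lower ones. The median of the 10 log2 fold changes was 0.09, beside 0.03 over all genes.

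The time courses of the arms separated between day 7 and day 21. In control cells all 6 receptors rose over that interval, against 68.7% of all genes called, 34.5% higher and 34.3% lower. Their median log2 change was 1.74, led by Lifr (3.39, adjusted p = 1.24e-25), Il6ra (2.11) and Osmr (1.97). Il6 also rose, by 0.98 (adjusted p = 0.000437), Il11 fell by 2.39 and Clcf1 fell by 3.71 on the log2 scale, while Lif, at -0.00, did not pass the test. With roxadustat only Lif (0.85), Lifr (0.64) and Il6st (0.16, adjusted p = 0.0202) rose, and Il11 (-1.59) and Clcf1 (-0.57) fell, against 61.5% of all genes called, 28.6% higher and 32.9% lower. The call of Il6st there was lost without roxadustat replicate 2 of day 7 (0.15, adjusted p = 0.056). Osmr, at 0.08 (adjusted p = 0.164), was called in 5 alternatives, for example at 0.16 (adjusted p = 0.00769) with library size alone. Cntfr, at -0.56 (adjusted p = 0.247), was called at -1.16 (adjusted p = 0.0328) without roxadustat replicate 1 of day 21.

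From fresh cells to day 7, 9 of 10 members were called in each arm, 4 higher and 5 lower, against 76.5% of all genes in control (37.0% higher and 39.5% lower) and 74.6% in roxadustat (37.1% and 37.6%). In both arms Il11, Clcf1 and Osmr rose and Il6, Il11ra1, Cntfr and Lifr fell. Il11 changed by 3.37 in control and 3.30 in roxadustat cells on the log2 scale, and Osmr by 2.21 and 2.87. From 1 and 3 counts at day 0, Clcf1 was 109.8-fold higher in control (95% exact counting interval 19.5 to 4354) and 68.7-fold higher with roxadustat (23.4 to 334.2), an interval that covers counting error only. Lifr fell by 2.77 and 2.45, and Il11ra1 fell by 1.50 and 1.52. Lif fell by 1.06 in control and rose by 0.46 with roxadustat. The fall of Il6 was -1.22 in control, and -0.58 (adjusted p = 0.0584) without control replicate 2 of day 0. With roxadustat it was -2.94, and -2.29 without roxadustat replicate 2 of day 0. Il6ra was called at 0.51 (adjusted p = 0.0117) in control, a call lost without control replicate 1 of day 0 (0.36, adjusted p = 0.165) and with DESeq2 (0.45, adjusted p = 0.0505). In roxadustat cells it was called at -0.41 (adjusted p = 0.0432), a call lost without any 1 of roxadustat replicates 1 and 2 of day 0 and 1 and 3 of day 7 (adjusted p = 0.141, 0.164, 0.0744 and 0.105), and with library size alone it was 0.03. The call of Cntfr with roxadustat (-1.21, adjusted p = 0.00765) was lost without roxadustat replicate 1 of day 0 (-0.94, adjusted p = 0.133) and with library size alone (-0.77, adjusted p = 0.0726). Il6st was the member not called in either arm, at -0.04 (adjusted p = 0.622) and 0.13 (adjusted p = 0.107). With library size alone it was called higher in both, at 0.39 (adjusted p = 1.95e-05) and 0.57 (adjusted p = 5.46e-08). Without control replicate 1 or 2 of day 0 its control value was -0.21 (adjusted p = 0.00594) or 0.20 (adjusted p = 0.0107).

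From day 0 to day 7 the difference between the arms changed in 5 members, against 28.9% of all genes (15.5% upward and 13.4% downward). It moved upward for Lif (1.52, adjusted p = 9.27e-09), Osmr (0.66) and Lifr (0.32) and downward for Il6 (-1.72) and Il6ra (-0.92). With 1 day 0 library left out, the call of Lifr was lost (adjusted p = 0.051 without control replicate 2 and 0.0956 without roxadustat replicate 2), as was that of Il6ra (0.0557 without control replicate 1). The value for Il6 was -2.34 without control replicate 2 and -1.09 without roxadustat replicate 2.

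The difference between the arms itself changed from day 7 to day 21 in all 10 members, against 44.7% of all genes (20.9% upward and 23.8% downward), upward for Il11, Lif and Clcf1 and downward for Il6 and the 6 receptors. Lifr had the largest downward change, -2.76 (adjusted p = 1.93e-20), followed by Il6ra at -2.25 (adjusted p = 1.27e-10), and Clcf1 the largest upward change, 3.15 (adjusted p = 2.81e-09). The change for Il6, -0.97 (adjusted p = 0.0401), was close to the threshold. It was lost without any 1 of 12 of the 16 libraries, with values of -0.86 to -1.01, and with the control pairs of day 21 summed (-0.99, adjusted p = 0.0672), which left 9 members. These day 7 and day 21 comparisons share no libraries, and each control group serves both the arm and the time comparison.

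Levels of different genes were compared per length of their merged exons. Il6st was the highest of the 10 genes in every group, at 27.9, 27.2 and 56.6 CPM per kb in control cells and 22.0, 24.0 and 26.8 CPM per kb in roxadustat cells (day 0, 7 and 21). In control cells at day 21 it was followed by Osmr at 36.3 ± 1.11, Lifr at 23.1 ± 1.74 and Il11ra1 at 6.57 ± 0.766 CPM per kb (SD, n = 4). The highest ligand there was Il6 at 3.94 ± 0.201 CPM per kb, and Lif stood at 2.72 ± 0.175. In roxadustat cells at day 21, Osmr at 11.4 ± 0.357 CPM per kb was followed by Lif at 8.81 ± 0.633, above its receptor Lifr at 4.17 ± 0.167. Il6 was at 0.793 ± 0.131 CPM per kb there, below Il11 at 1.51 ± 0.192 and Clcf1 at 1.29 ± 0.0901. Among the ligands that are members, Il6 thus had the highest level in control and the lowest in roxadustat cells at that time.

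**Figure D3:**
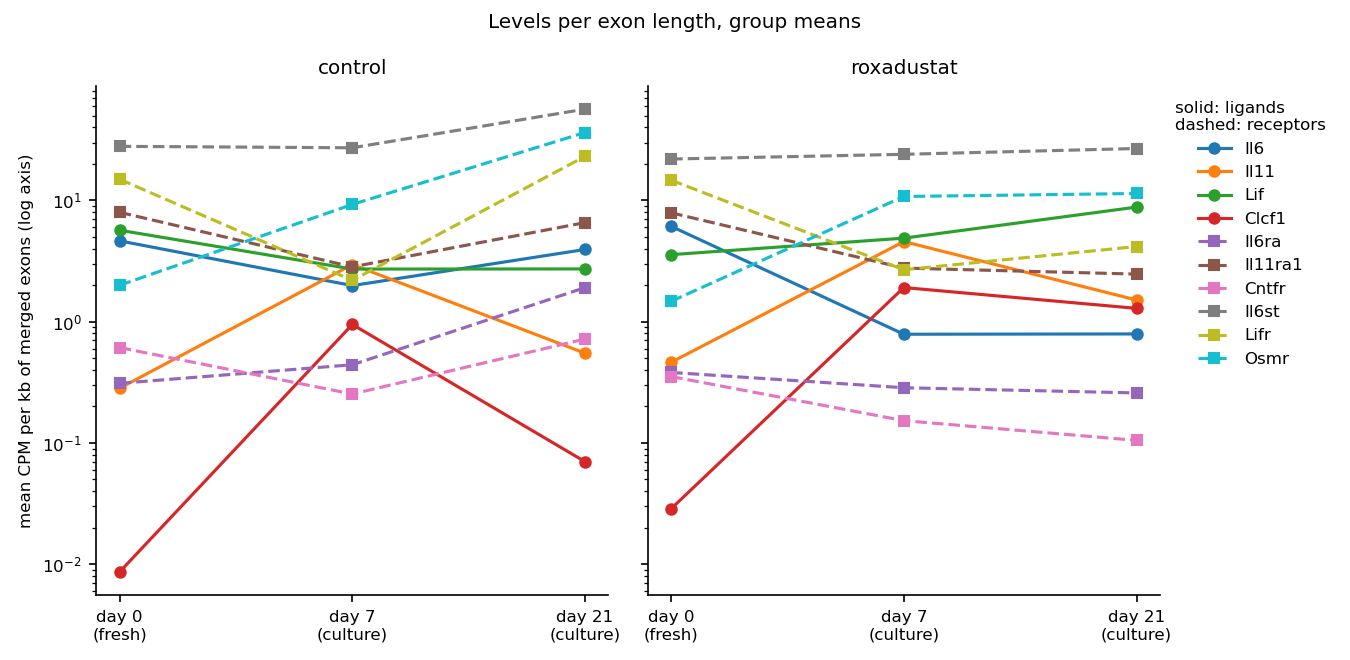
Group mean CPM per kb of merged exons (log axis) at day 0, 7 and 21 in control (left) and roxadustat cells (right), ligands as solid and receptors as dashed lines. In control cells every receptor line goes up from day 7 to day 21, and with roxadustat Lif reaches 8.81 CPM per kb, above Lifr at 4.17.

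Ordered over the groups, the receptors had their highest mean in control cells at day 21, except Il11ra1, which was highest in fresh cells. The day 21 control libraries lay apart from the next group for Il6ra, Il6st, Lifr and Osmr, and overlapped fresh control cells for Cntfr. Il11 and Clcf1 were highest in roxadustat cells at day 7 and Lif in roxadustat cells at day 21, each apart from the next group. Il6 was highest in fresh cells, where its groups overlapped each other and those of control cells at day 21.

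Genes around the family were followed in lists. Among other ligands and receptors of the family, Il27ra, the interleukin-27 receptor, was lower at day 21, at 0.976 against 8.86 CPM (-3.19 ± 0.20, adjusted p = 7.63e-14). Ctf1, cardiotrophin 1, was higher at day 21 (1.26 ± 0.18), and Osm, the oncostatin M gene, was lower, with 15 counts over the control and 0 over the roxadustat libraries.

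Of 10 Janus kinases, STATs and adaptors, 7 were lower and none higher with roxadustat at day 21, beside 32.9% and 30.0% of all genes. The median log2 fold change was -0.32, beside 0.00 over all genes. Stat3, the transcription factor at the end of the pathway, was at 297 ± 8.68 CPM in control and 169 ± 4.92 CPM in roxadustat cells (SD, n = 4), a log2 fold change of -0.81 ± 0.05 (adjusted p = 9.55e-15). The phosphatase adaptor Ptpn11 (-0.50) and the kinase Jak2 (-0.44) were also lower. At day 7, 1 of the 10 was higher and 4 were lower, beside 24.1% and 23.6% of all genes, with a median of -0.06. At day 0 only Stat3 was called (-0.35, adjusted p = 0.000909).

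The feedback inhibitors and the proteases that shed receptors moved both ways, with 4 of 10 higher and 5 lower at day 21, beside 30.0% and 32.9% of all genes, and a median of -0.13. Socs3, the STAT3-induced inhibitor of gp130, was at 61.2 ± 3.73 CPM in control and 14.7 ± 1.35 CPM in roxadustat cells at day 21 (-2.04 ± 0.07, adjusted p = 1.74e-19). At day 7 the direction was the other one, 14.5 ± 1.03 against 21.4 ± 2.09 CPM (0.56 ± 0.08, adjusted p = 5.01e-07). Cish, an inhibitor induced by STAT5, was higher with roxadustat at day 7 (1.35 ± 0.14, adjusted p = 7.81e-09) and at day 21 (3.20 ± 0.14, adjusted p = 1.02e-17). Adam10, a protease that can shed Il6ra, was lower at both times (-0.33 and -0.66).

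Of 21 genes known as targets of STAT3 or interleukin-6, 12 were lower and 4 higher with roxadustat at day 21, beside 32.9% and 30.0% of all genes. Their median log2 fold change was -0.41, over the 19 genes with more than 3 counts in an arm and with 1 gene without control counts at its bound. The kinase gene Pim1 (-2.06), the interleukin-4 receptor Il4ra (-1.48), the protease inhibitor Timp1 (-1.36) and Bcl3 (-1.17) were among the lower ones. At day 7, 5 were higher and 7 lower, beside 24.1% and 23.6% of all genes. The adhesion molecule Icam1 (1.43) and the transcription factor Cebpd (0.60) were higher, and Pim1 (-0.64) and Junb (-0.40) lower. At day 0, 1 was higher, Timp1 (3.16 ± 0.38, adjusted p = 6.4e-05), and 4 were lower, beside 2.73% and 4.11% of all genes. Timp1 was at 0.39 and 2.30 CPM in the control and 9.87 and 14.4 CPM in the roxadustat libraries of day 0.

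Of 10 genes of the cytokine and NF-kB signals that control Il6 transcription, 7 were lower and 1 higher with roxadustat at day 21, beside 32.9% and 30.0% of all genes. Their median was -0.72 over the 9 with more than 3 counts in an arm. The receptor of tumour necrosis factor Tnfrsf1a (-1.24), the interleukin-1 receptor Il1r1 (-1.58) and Nfkbia (-0.72), which encodes an inhibitor of NF-kB and not an inducer, were lower, and Nfkb1 (0.44) was higher. At day 0, 4 of the 10 were lower and none higher, beside 4.11% and 2.73% of all genes, with Relb at -0.72 (adjusted p = 0.00015). A fit of the day 0 libraries alone called 23 genes in place of 1280. Whether the day 0 calls of genes in these lists, among them Stat3, Timp1 and Relb, hold in that fit was not examined.

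**Figure D4:**
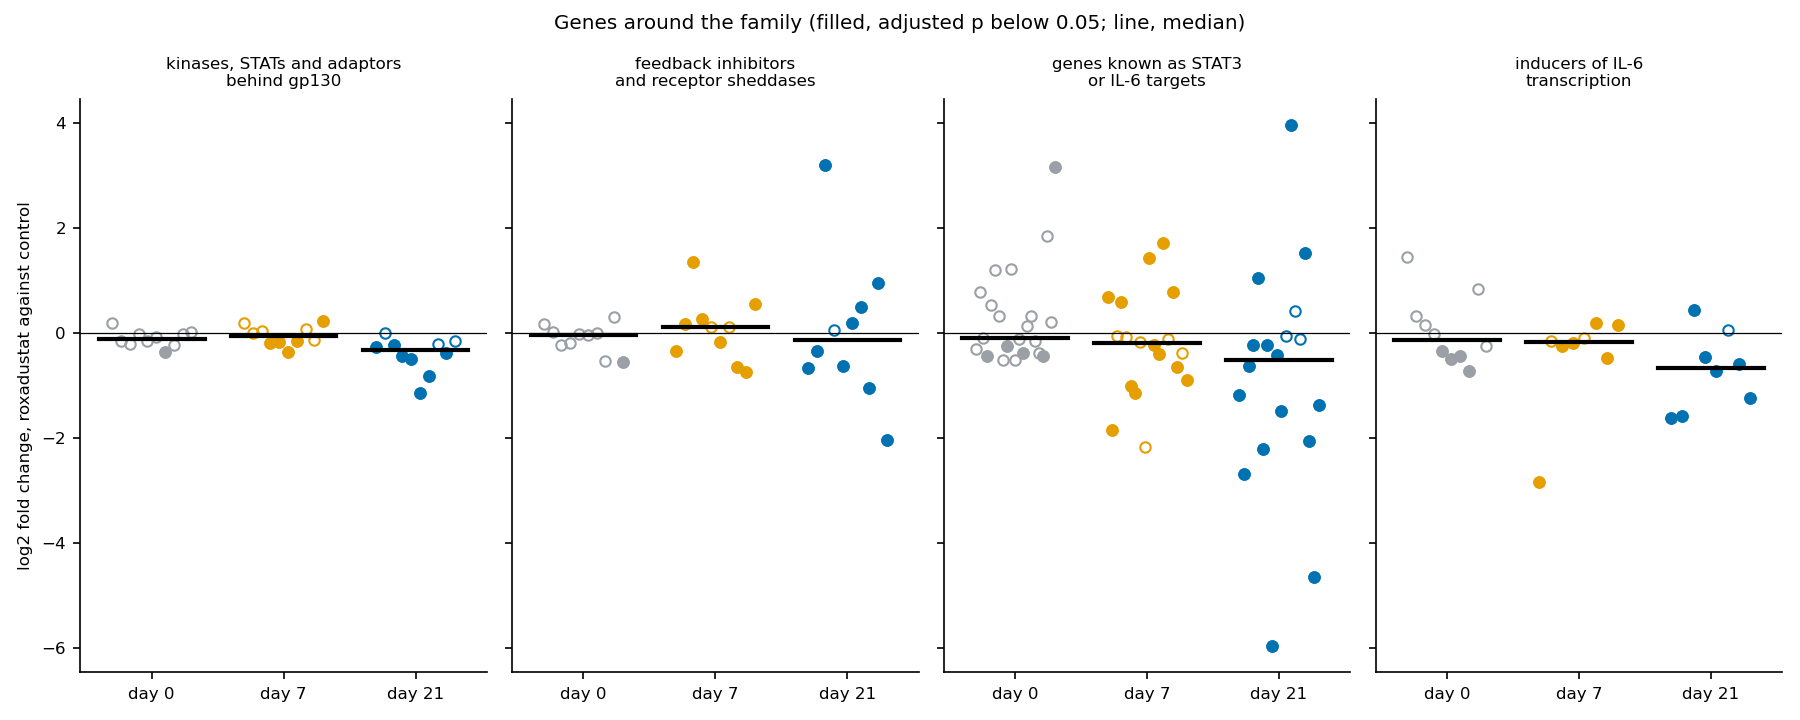
Log2 fold change of roxadustat against control (y axis) at day 0, 7 and 21 for 4 lists of genes around the family, filled where the adjusted p is below 0.05; genes with 3 or fewer counts in an arm are left out and the black line is the median of the points shown. In the list of kinases and STATs, the 7 filled points of day 21 all lie below 0.

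Across the 20 libraries, which share the design of 6 groups, correlations of log2 levels describe which genes had similar patterns. Among members, Il6ra and Il6st had r = 0.94 and Il11 and Clcf1 r = 0.92. Clcf1 and Il11ra1 had r = -0.96, and Il6 and Clcf1 r = -0.92. Among 11346 genes with a mean of at least 5 CPM, those most like Clcf1 were Plin2, Spcs3 and Asb5 (0.99), and those most like Il11 were Armc10 (0.99), Bag2 and Prpf31 (0.98). Bicd1, Sema5a and Mtmr10 (0.95) were most like Lif, and Col4a3bp, B4galt5 and Dnajc13 (0.96) most like Il6. Il6ra was closest to the collagen gene Col6a2 and to Aoc3 (0.99), Il11ra1 to Dpep1 and Hdac5 (0.98), and Il6st to Sipa1l2 (0.99). Lifr was closest to Sned1 (0.99) and Osmr to Fam129a, Heg1 and Gm6548 (0.99). Cntfr was not searched because its mean was 0.953 CPM.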

How the data were processed

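The authors deposited raw counts per Ensembl gene for each of 20 libraries from a non-stranded mRNA protocol. The submitters' processing notes list bcl2fastq, STAR 2.5.2a, featureCounts 1.5.0-p1 and mm10. The annotation release, strand setting and handling of multiply mapped reads are not given in the sources used here. Of 47729 genes, 47224 were matched to GENCODE M21 (GRCm38), whose merged exons gave the lengths.

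Groups came from the time and treatment labels. Counts of all 20 libraries were fitted with edgeR 4.0.16 in R 4.3.3 (limma 3.58.1, filterByExpr, TMM, 1 coefficient per group, robust quasi-likelihood F test, Benjamini-Hochberg adjustment over 18731 genes, threshold 0.05). SEs were derived from the fit as |log2 fold change|/√F. Levels are CPM scaled by TMM, and correlations used log2(CPM + 0.5). Il6 family members and gene lists were chosen with earlier results of these data known. From each list, up to 4 genes of smallest adjusted p were named if they reached 5 CPM in either group; Osm and Ctf1 fall outside this rule and were picked with their values in view. In simulated data with the day 0 design, edgeR recovered 58.2% of 1.5-fold, 80.6% of 2-fold and 100% of 4-fold changes, and 5.36% of calls were false. At day 21 the rates were 64.2%, 85.1% and 100%, with 2.92% false. The simulation gave every library the same spread per gene, estimated over all 20, so its rates may not hold for the real day 0 libraries. It also changed only a small share of the genes, in random directions, from levels equal in all groups. In the real day 21 comparison 62.9% of genes were called, so the day 21 rates may not hold there either. By mean chi-square per gene, a measure of spread between replicates, the day 0 pairs stood at 35.2 (control) and 11.5 (roxadustat). Pairs of control libraries at day 7 stood at 2.50 to 5.86, and pairs in the other cultured groups at up to 22.0. Alternatives were the size factors of DESeq2 1.42.0, its test, library size alone, other filters, only the groups compared, the replicate number as a block and each library left out. No library or column was left out; some genes of the lists are not reported here.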

Additional observations from a re-analysis of the deposited data

Results flagged for a closer look

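Over 40 groups of 4 libraries and 1 gene, 3 had a library far from the others, where chance gives about 1 in 20. Il11 was at 10.41 CPM in roxadustat replicate 3 of day 7, against 9.17 to 9.30 CPM in the others. Il11 was at 1.861 CPM in control replicate 2 of day 21, against 0.88 to 0.92 CPM. Clcf1 was at 0.1405 CPM in control replicate 4 of day 21, against 0.30 to 0.319 CPM, which rests on 16 counts over the group.

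The difference between roxadustat and control cells itself changed with time. From day 0 to day 7 the log2 fold change shifted by -1.72 for Il6 and -0.92 for Il6ra, and by 1.52 for Lif, 0.32 for Lifr and 0.66 for Osmr. The Il6 shift was -2.34 without control replicate 2 and -1.09 without roxadustat replicate 2 of day 0. The call of Il6ra was lost without control replicate 1 of day 0 (adjusted p = 0.0557), and that of Lifr without control replicate 2 (0.051) or roxadustat replicate 2 (0.0956) of day 0. Il6st, not called, was called without control replicate 1 of day 0 (0.36, adjusted p = 0.00158).

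From day 7 to day 21 the shift was 0.80 for Il11, 0.85 for Lif and 3.15 for Clcf1. It was -0.97 for Il6, -2.25 for Il6ra, -1.39 for Il11ra1, -2.07 for Cntfr (-2.68 without roxadustat replicate 1 of day 21), -0.90 for Il6st, -2.76 for Lifr and -1.89 for Osmr.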

How the results depend on the processing

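At day 21 all 159 alternative values of the 10 members for roxadustat against control kept their direction and call. Library size alone moved the median of all genes there from 0.00 to 0.34, with 9372 genes higher and 3549 lower in place of 5616 and 6165. It moved the medians from day 0 to day 7 to 0.40 in control and 0.46 in roxadustat, from day 7 to day 21 in control to -0.19 and of the shift from day 7 to day 21 to 0.26. The splits of higher and lower genes became 699 and 524 in place of 511 and 769 at day 0, and 5063 and 8172 in place of 6456 and 6421 from day 7 to day 21 in control.

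At day 0, 1280 genes and 3 members were called, and 573 to 1649 genes with 1 library left out. A fit of the day 0 libraries alone called 23 genes and no member. That fit has fewer samples and also takes the spread from the day 0 libraries only, and the part of each in the lost calls was not tested. Among 1409 single-gene values 1323 kept direction and call, 38 lost it, 10 gained it and 38 changed sign, 37 of these for results not called. With library size alone the signs changed for Il11ra1 (0.04) and Lifr (0.03) at day 0, Il11ra1 at day 7 (0.03), Il6st from day 0 to day 7 in control (0.39) and Il6ra with roxadustat (0.03). With only the groups compared they changed for Il11ra1 at day 0 (0.00) and Lif from day 7 to day 21 in control (0.02), the latter also with a mean of at least 1 CPM (0.04) and control pairs summed (0.02). Without a filter Il6 from day 7 to day 21 with roxadustat was -0.03. The cause of these changes was not tested.

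With 1 library left out, values ran from -0.25 to 1.00 for Il6, -0.17 to 0.14 for Il11ra1 and -0.09 to 0.02 for Lifr at day 0, and -0.11 to 0.04 for Il11ra1 at day 7. They ran from -0.21 to 0.20 for Il6st from day 0 to day 7 in control. From day 7 to day 21 they ran from -0.06 to 0.03 for Lif in control and from -0.08 to 0.11 for Il6 with roxadustat. For the shift from day 0 to day 7 they ran from -0.25 to 0.09 for Il11, -2.91 to 0.38 for Clcf1, -0.18 to 0.13 for Il11ra1, -0.18 to 0.31 for Cntfr and -0.05 to 0.36 for Il6st. The shift of Il6 from day 7 to day 21 was -0.69 (adjusted p = 0.141) with library size alone and -0.91 (adjusted p = 0.0546) with DESeq2's size factors.

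Libraries of equal replicate number showed no general similarity (42 pairs of equal number, median r = 0.01, 6 over 0.1). Only between the arms of day 0 was every such pair over 0.1 (r = 0.14). This check cannot tell if a number marks a shared animal or culture. With the replicate number as a block 1241 genes were called at day 0, 8922 at day 7 and 11727 at day 21, and the counts of members called stayed at 3, 8 and 10. The control libraries of day 21 formed 2 close pairs (mean chi-square per gene 2.32 and 1.94 within, 16.1 to 22.0 between). Summing each pair, an alternative chosen after seeing the data, left 10 members called at day 21, but 9 of 10 for the shift from day 7 to day 21, with Il6 lost (-0.99, adjusted p = 0.0672).

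Depth limits the low groups most, among them Clcf1 at day 0 (1 and 3 counts) and in control at day 21 (16), Cntfr with roxadustat at day 21 (18) and day 7 (35), and Il11 at day 0 (18 and 27).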
